A study of Mus musculus with 10 samples.

Results

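Heavy chains with a long complementarity-determining region 3 (CDR3) were examined in the B cell receptor repertoires of deep cervical lymph nodes, which drain the brain and meninges. A long CDR3 had 18 or more residues, and the set was every productive heavy-chain sequence that met this length in the deposited tables, 3823 of 312599 sequences. A clonotype was a set of sequences of 1 mouse that shared their V and J genes, their junction and their constant gene. Counted in this way, long CDR3s numbered 3493 of 283811. They were set against the 210989 clonotypes whose CDR3 had 9 to 14 residues, which made up 74.3% of all.

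GL261, a mouse glioma cell line, had been injected into the brains of C57BL/6 wild-type mice, and the nodes were taken on day 20. Mice had received an antibody against CTLA-4, an inhibitory receptor of T cells (n = 5), or an isotype control IgG (n = 5). The antibody dose and schedule are not given in the labels. All 10 mice had received glioma cells, so no values from tumour-free mice enter here. Total RNA was taken from the whole cell suspension of each mouse without a sort for B cells, and each mouse gave 1 library. Productive heavy chains had a deposited count of 158989 to 362371 per mouse and formed 20897 to 41332 clonotypes. In such bulk RNA fewer cells of a kind and less receptor RNA per cell cannot be told apart.

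The heavy-chain CDR3 is built where a V, a D and a J gene are joined, and terminal deoxynucleotidyl transferase adds nucleotides that no gene encodes (N nucleotides) at both joints. Its length therefore depends on which genes are used, how far their ends are trimmed and how many N nucleotides are added. The loop sits at the centre of the antigen-binding site, and mouse CDR3s are rich in tyrosine, much of it encoded by D genes.

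The junction runs from the V gene's conserved cysteine codon to the J gene's conserved tryptophan codon, and the CDR3 is the stretch between them. The best counted long junction with each J gene and the 3 longest junctions are shown 5′ to 3′ as deposited, because they display the parts whose use is counted below. Capitals mark the bases that the deposited alignment assigned to the D gene, and lower case all other bases: the V end, the J start and what lies between. In the junction of 24 residues, the stretch directly after the D bases repeats the J end of the same junction. That stretch is therefore not plain N addition, and how it arose was not tested.
IGHV1-5, IGHD1-1, IGHJ1, IgM in anti-CTLA-4 replicate 3, 18 residues, count 2569: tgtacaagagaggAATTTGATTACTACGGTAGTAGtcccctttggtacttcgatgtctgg
IGHV1-55, IGHD2-3, IGHJ2, IgA in isotype replicate 5, 18 residues, count 476: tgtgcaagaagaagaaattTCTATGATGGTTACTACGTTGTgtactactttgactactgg
IGHV3-6, IGHD1-1, IGHJ3, IgM in anti-CTLA-4 replicate 3, 18 residues, count 15: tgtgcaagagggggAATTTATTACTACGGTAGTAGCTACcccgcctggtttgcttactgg
IGHV1-64, IGHD1-1, IGHJ4, IgA in anti-CTLA-4 replicate 1, 18 residues, count 831: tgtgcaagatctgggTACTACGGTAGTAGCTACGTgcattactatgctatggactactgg
IGHV8-8, IGHD1-1, IGHJ4, IgD in isotype replicate 1, 26 residues, count 1: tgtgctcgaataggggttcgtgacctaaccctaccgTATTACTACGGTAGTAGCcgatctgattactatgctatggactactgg
IGHV1-69, IGHD1-1, IGHJ4, IgM in anti-CTLA-4 replicate 4, 25 residues, count 1: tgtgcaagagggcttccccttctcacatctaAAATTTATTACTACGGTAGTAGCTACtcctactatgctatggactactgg
IGHV8-12, IGHD1-1, IGHJ1, IgD in anti-CTLA-4 replicate 1, 24 residues, count 1: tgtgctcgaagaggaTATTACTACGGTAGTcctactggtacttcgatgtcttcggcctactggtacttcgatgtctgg

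Most long CDR3s lay close to the lower limit. Of the 3493 clonotypes, 2339 (67.0%) had 18 residues, 780 had 19, 267 had 20 and 107 had 21 or more. The longest CDR3 had 26 residues and occurred in isotype replicate 1, and the next had 25 residues and occurred in anti-CTLA-4 replicate 4. The median over all clonotypes was 12 residues in every mouse. Of long clonotypes 62.1% had a deposited count of 1. A count of 2 or more was reached by 38.2% at 18 residues and 36.9% at 20 or more, against 36.5% at 9 to 14 residues. Just inside and just outside the limit, IGHD1-1 was called in 70.3% at 18 residues and in 64.3% at 17 residues, IGHJ4 in 46.7% at 18 and 46.5% at 17, and tyrosine made up 24.1% of residues at 18 and 24.5% at 17.

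**Figure D1:**
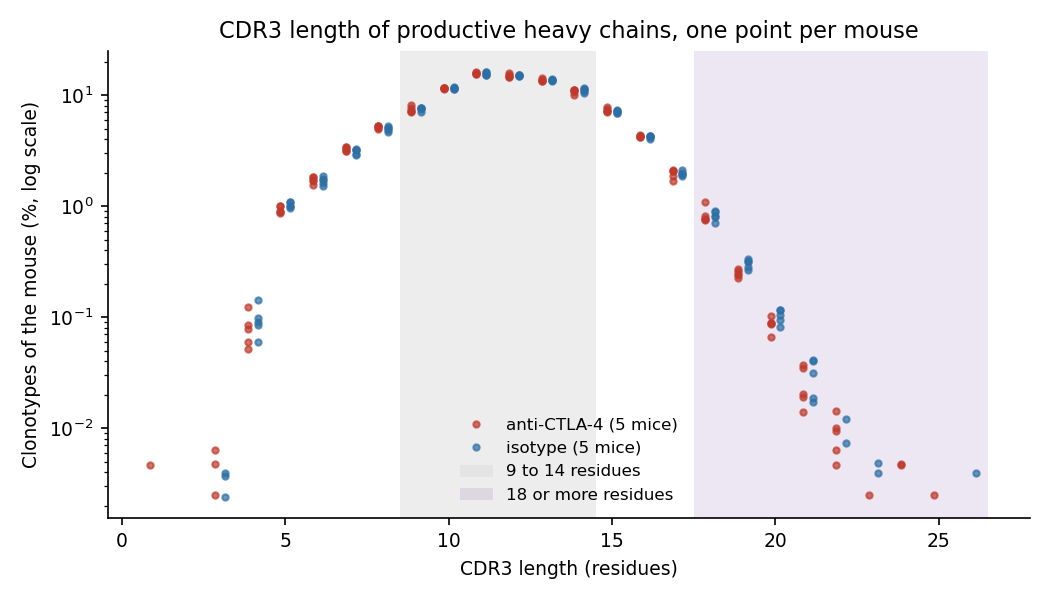
CDR3 length in residues (x axis) against the percentage of a mouse's productive heavy-chain clonotypes with that length (y axis, log scale), 1 point per mouse, with anti-CTLA-4 mice drawn left of isotype mice. The grey band holds the 9 to 14 residue CDR3s and the purple band the long CDR3s, whose points fall steeply from 18 to 26 residues in both groups; lengths with no clonotype in a mouse have no point.

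Long CDR3s took a similar small share of the repertoire in all mice. They made up 1.15%, 1.21%, 1.49%, 1.12% and 1.10% of classed clonotypes in anti-CTLA-4 replicates 1 to 5, and 1.23%, 1.34%, 1.18%, 1.21% and 1.35% in isotype replicates 1 to 5. Anti-CTLA-4 replicate 3 had the highest share, replicate 2 lay inside the isotype range of 1.18% to 1.35%, and anti-CTLA-4 replicates 1, 4 and 5 lay below it. The means were 1.21% ± 0.159 in anti-CTLA-4 mice and 1.26% ± 0.0786 in isotype mice (SD, n = 5 each), a difference of -0.0513 percentage points (exact permutation test, two-sided, p = 0.571, and 0.913 when adjusted over 5 shares). Leaving out the leading long lineage of each mouse changed this call. In that alternative, chosen after the data were seen, the shares averaged 1.14% in anti-CTLA-4 mice and 1.25% in isotype mice (exact permutation adjusted p = 0.0397). The removal was uneven: it took 70 clonotypes from anti-CTLA-4 replicate 3 and 1 to 9 from each other mouse. As all of them were long, it could only lower a share. Without anti-CTLA-4 replicate 3 the difference was -0.120 (exact permutation adjusted p = 0.179).

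By class, IgM, the first class that a B cell makes, held 2553 of the long clonotypes. IgD, which naive B cells carry beside IgM, held 827. The switched classes held few: IgG 82, IgA 23 and IgE 2, while 6 had no constant gene call. Among IgM clonotypes long CDR3s made up 1.24% ± 0.152 in anti-CTLA-4 mice and 1.27% ± 0.0779 in isotype mice, and among IgD clonotypes 1.18% ± 0.0860 and 1.19% ± 0.182 (SD, n = 5 each). Neither difference passed its exact permutation test (adjusted p = 0.913 for both). Within mice the IgD share differed from the IgM share by -0.0697 percentage points (exact sign-flip permutation adjusted p = 0.510, n = 10).

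The long share of IgG clonotypes varied far more between mice. It was 0.132%, 0.439%, 2.82%, 0.251% and 0.372% in anti-CTLA-4 replicates 1 to 5, and 1.62%, 3.82%, 1.20%, 0.376% and 0% in isotype replicates 1 to 5. Anti-CTLA-4 replicate 3 and isotype replicate 2, with 29 and 27 long IgG clonotypes, lay above the others, and the groups overlapped. Isotype replicate 5 had 0 of 195 IgG clonotypes, which allows a share of up to 1.54%, and anti-CTLA-4 replicate 4 had 1 of 398, with a 95% exact Clopper-Pearson interval of 0.00636% to 1.39%. Intervals and limits here cover counting error only. The group means of 0.803% ± 1.13 in anti-CTLA-4 mice and 1.40% ± 1.496 in isotype mice (SD, n = 5 each) did not pass the exact permutation test (p = 0.540, adjusted p = 0.913). Within mice the IgG share did not pass its test against the IgM share either, with a mean difference of -0.151 percentage points (exact sign-flip permutation adjusted p = 0.711), and without the leading lineages the mean IgG share over all mice was 0.786%. By treatment it was then 0.277% in anti-CTLA-4 mice and 1.29% in isotype mice, a difference of -1.02 against -0.600 with all clonotypes (exact permutation adjusted p = 0.185). The lineage left out was that of the best counted long clonotype of any class, so it took IgG unevenly. The IgG share of anti-CTLA-4 replicate 3 fell from 2.82% to 0.794%, and that of isotype replicate 2 from 3.82% to 3.55%.

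IgA, the class of mucosal plasma cells, had the widest range of all. Its long share was 5.71%, 0.510%, 1.27%, 0% and 0.472% in anti-CTLA-4 replicates 1 to 5, and 0.556%, 4.55%, 0%, 5.38% and 0.862% in isotype replicates 1 to 5. These shares rest on 0 to 10 long clonotypes per mouse: the 5.71% of anti-CTLA-4 replicate 1 was 2 of 35 IgA clonotypes, with a 95% exact Clopper-Pearson interval of 0.700% to 19.2%. The means of 1.59% ± 2.35 and 2.27% ± 2.495 in anti-CTLA-4 and isotype mice (SD, n = 5 each) did not pass the exact permutation test (adjusted p = 0.913).

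**Figure D2:**
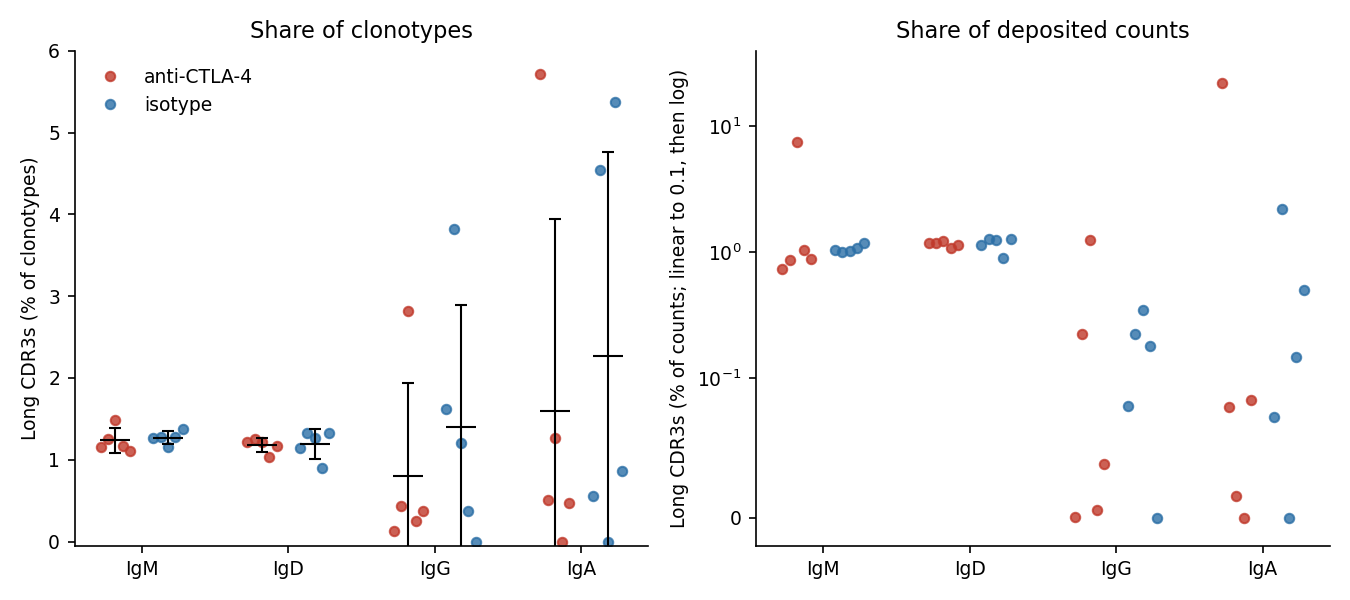
Share of each class with a long CDR3 (y axis), by clonotypes on the left and by deposited counts on the right (linear up to 0.1% and log above), 1 point per mouse, anti-CTLA-4 mice left of isotype mice. Black bars are the mean and SD (n = 5), cut off at 0. IgM and IgD points lie between 0.895% and 1.49% of clonotypes, IgG and IgA points spread from 0% to 5.71%, and by counts the IgM of anti-CTLA-4 replicate 3 (7.52%) and the IgA of anti-CTLA-4 replicate 1 (22.0%) stand above the rest.

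The J gene differed sharply between long and 9 to 14 residue CDR3s. IGHJ1 and IGHJ4, whose coding ends reach further into the CDR3, were used more often: IGHJ4 in 51.3% ± 3.34 of long clonotypes against 26.4% ± 0.4685 of 9 to 14 residue clonotypes, and IGHJ1 in 31.5% ± 5.22 against 15.3% ± 0.361 (SD, n = 10 mice). IGHJ2, the J gene used most at 9 to 14 residues, fell to 10.3% ± 1.93 of long clonotypes against 33.6% ± 0.397. IGHJ3 fell to 7.02% ± 1.35 against 24.7% ± 0.550. Each of the 4 shifts had the same direction in 10 of 10 mice and reached the smallest p that the sign flips can give (two-sided exact sign-flip permutation p = 0.00195, adjusted p = 0.00195). The IGHJ1 call was lost with a limit of 20 residues, at 21.9% against 15.3% (adjusted p = 0.0762 by the same exact test), and the IGHJ4 call with counts in place of clonotypes, at 48.2% against 26.4% (adjusted p = 0.104). The J gene's own share of the junction averaged 21.6 nucleotides for IGHJ4 and 21.5 for IGHJ1 in long CDR3s, against 17.2 for IGHJ3 and 16.85 for IGHJ2 in the same CDR3s, and these nucleotides count towards the length by which the sequences were chosen.

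Between treatments, IGHJ4 was found in 49.4%, 52.9%, 43.6%, 49.9% and 49.9% of long clonotypes in anti-CTLA-4 replicates 1 to 5, and in 53.4%, 53.3%, 52.5%, 55.9% and 51.9% in isotype replicates 1 to 5. Only anti-CTLA-4 replicate 2 lay within the isotype range. The difference of -4.28 percentage points had an exact permutation p of 0.0238, or 0.0952 when adjusted over 4 J genes, so it did not pass. It was -5.21 without anti-CTLA-4 replicate 2 (exact permutation adjusted p = 0.0317) and -2.67 without the leading lineages (adjusted p = 0.455). IGHJ1 was found in 33.4% ± 7.03 of long clonotypes in anti-CTLA-4 mice and 29.5% ± 1.64 in isotype mice, with anti-CTLA-4 replicate 3 at 45.5% and the other 9 mice between 27.2% and 32.1%. IGHJ2 (10.2% ± 2.72 and 10.3% ± 0.996) and IGHJ3 (7.25% ± 1.63 and 6.79% ± 1.13) had adjusted p values of 0.984 and 0.783 by the same exact permutation test.

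A single D gene, IGHD1-1, supplied most long CDR3s. It is among the longest mouse D genes and is also known as DFL16.1. IGHD1-1 was called in 65.0%, 71.6%, 79.2%, 70.9% and 69.3% of long clonotypes in anti-CTLA-4 replicates 1 to 5, and in 72.5%, 71.8%, 68.3%, 69.0% and 66.1% in isotype replicates 1 to 5. Every one of these values was far above the mean of 23.0% ± 0.536 among 9 to 14 residue clonotypes (10 of 10 mice, exact sign-flip permutation adjusted p = 0.00221). Of 17 D call classes 15 passed this test (88.2%), 13 of them lower in long CDR3s. The D shares of a mouse add up to a fixed total, so the rise of IGHD1-1 lowers the others as a set. The lower classes are therefore not separate results. D bases also count towards the length by which the sequences were chosen. The short IGHD4-1 was called in 0.480% ± 0.475 of long clonotypes against 9.47% ± 0.401, and clonotypes with no D call, 8.82% ± 0.163 at 9 to 14 residues, numbered 0 among long CDR3s. The joint call IGHD2-4 or IGHD2-7, at 4.17% ± 1.42 against 1.11% ± 0.0576, was the other class that passed with a higher share. IGHD2-7 alone, at 2.86% against 2.36%, did not pass (exact sign-flip permutation adjusted p = 0.131).

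Counted as pairs, IGHD1-1 with IGHJ4 made up 32.9% ± 3.14 of long clonotypes against 4.09% ± 0.191 at 9 to 14 residues. IGHD1-1 with IGHJ1 made up 26.0% ± 6.21 against 3.91% ± 0.175 (SD, n = 10). Among IGHD1-1 clonotypes alone, the J shift remained, with IGHJ4 in 46.8% of long clonotypes and 17.8% of 9 to 14 residue clonotypes (exact sign-flip permutation adjusted p = 0.00195). That 46.8% was below the 51.3% that IGHJ4 had among all long clonotypes. By class, in sums over mice that were not tested, IGHD1-1 was called in 91.5% of the 82 long IgG clonotypes, 70.5% of the 2553 long IgM clonotypes and 47.8% of the 23 long IgA clonotypes, and 73.9% of long IgA clonotypes used IGHJ1. Most long IgG clonotypes came from 2 mice. Of the long IgA clonotypes, 9 belonged to a single IGHV1-9 and IGHJ1 lineage of isotype replicate 4 and 5 to a single IGHV1-26 and IGHJ1 lineage of isotype replicate 2.

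Every part of the junction was longer in long CDR3s, in values given without a test because they add up to the length by which the sequences were chosen. The D-aligned part averaged 18.4 ± 0.247 nucleotides in long junctions against 10.6 ± 0.0463 in 9 to 14 residue junctions, and the 2 N parts together 11.9 ± 0.187 against 5.51 ± 0.0273 (SD, n = 10 mice). The V part averaged 10.35 nucleotides against 9.15, and the J part 20.75 against 16.1. At least 15 D-aligned nucleotides were present in 81.9% ± 1.88 of long clonotypes against 17.8% ± 0.450.

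**Figure D3:**
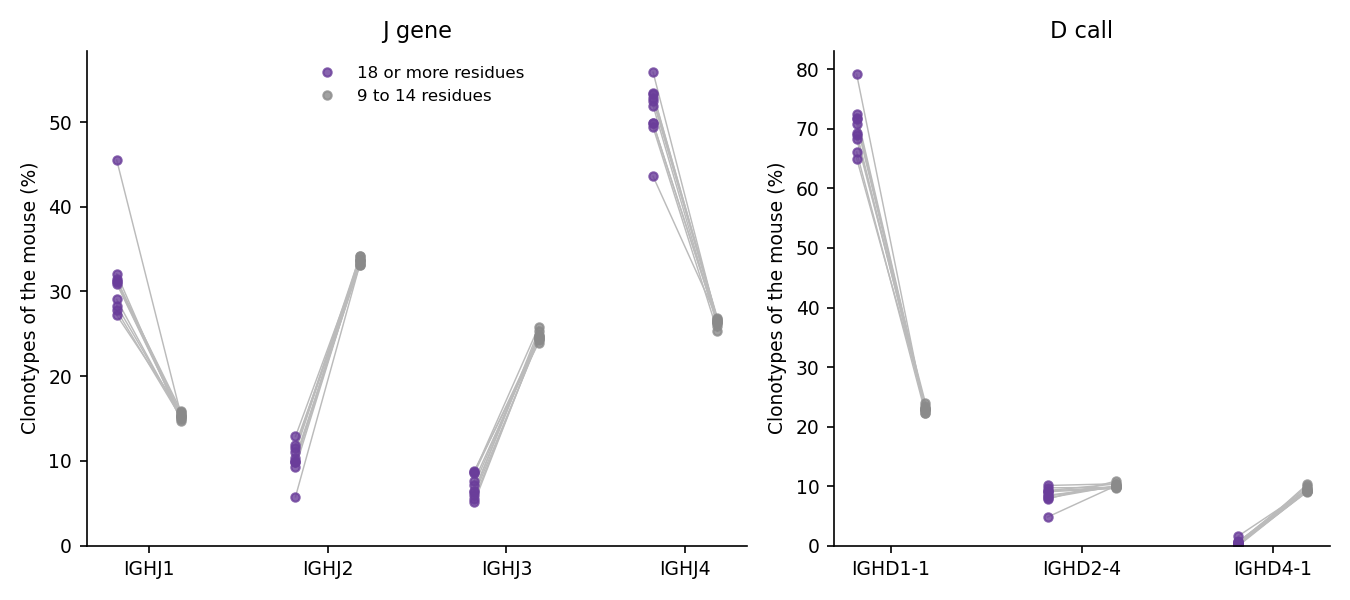
Share of a mouse's clonotypes (y axis, %) with each J gene (left) and with 3 D calls (right), for long CDR3s (purple, left) and 9 to 14 residue CDR3s (grey, right); grey lines join the values of 1 mouse (n = 10). IGHJ1, IGHJ4 and IGHD1-1 were higher in long CDR3s in every mouse and IGHJ2, IGHJ3, IGHD2-4 and IGHD4-1 lower; the high IGHJ1 point, 45.5%, is anti-CTLA-4 replicate 3.

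Long CDR3s held more tyrosine and serine per residue. Tyrosine made up 24.0% ± 0.851 of their residues against 20.3% ± 0.117 at 9 to 14 residues, that is 4.44 ± 0.165 tyrosines per CDR3 against 2.37 ± 0.0175 (SD, n = 10). Serine, which IGHD1-1 encodes in 1 reading frame as a pair after glycine, made up 8.54% ± 0.477 against 6.10% ± 0.0675. The basic residues lysine and arginine together made up 8.70% ± 0.192 against 10.3% ± 0.0510. All 3 shifts had the same direction in 10 of 10 mice (exact sign-flip permutation adjusted p = 0.00342 over 7 measures).

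The acidic residues aspartate and glutamate made up 11.8% ± 0.708 of residues in long CDR3s against 12.7% ± 0.0915 (9 of 10 mice lower, exact sign-flip permutation adjusted p = 0.0109). Glycine made up 9.22% ± 0.520 against 9.69% ± 0.0841 (8 of 10 mice lower, adjusted p = 0.0342 by the same test), a call that was lost without any 1 of 7 mice, with an adjusted p of up to 0.0684. Net charge, counting lysine and arginine as +1 and aspartate and glutamate as -1, averaged -0.568 ± 0.155 per long CDR3 against -0.284 ± 0.0140. As a sum over residues it grows with length. For that reason its p is not given, though it was 1 of the 7 measures adjusted together. Per 100 residues, a scale added after the data were seen, it was -3.07 in long CDR3s against -2.44, more negative in 7 of 10 mice (exact sign-flip permutation adjusted p = 0.0219, and at most 0.0438 without any 1 mouse). Anti-CTLA-4 replicate 3 had the most negative value, -5.21, and in anti-CTLA-4 replicates 2, 4 and 5 the long value was the less negative one. Without the leading lineages it was -2.82 against -2.44 (adjusted p = 0.0449 by the same test). Cysteine, which can form a disulphide bond inside the loop, made up 0.145% ± 0.0604 of residues in long CDR3s against 0.164% ± 0.0122, which did not pass the same exact test (adjusted p = 0.369). It passed without the leading lineages, at 0.134% against 0.164% (8 of 10 mice lower, exact sign-flip permutation adjusted p = 0.0293). Leaving out anti-CTLA-4 replicate 3 gave an adjusted p of 0.0137 by the same exact test. In all, 90 long clonotypes held a cysteine and 4 of them held 2 or more.

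Gene use moved with these residue shifts. The stretch YAMDY, which IGHJ4 encodes, occurred in 45.1% ± 3.16 of long clonotypes against 15.7% ± 0.296, and YYGSS, from IGHD1-1, in 43.6% ± 3.25 against 5.72% ± 0.274. WYFDV, from IGHJ1, occurred in 26.53% ± 3.95 against 9.16% ± 0.244. The hydrophobic IGHD1-1 frame, seen as TTVVA, occurred in 11.9% ± 1.72 against 1.425% ± 0.1498 (SD, n = 10). Among IGHD1-1 clonotypes alone tyrosine was still higher in long CDR3s (23.7% against 21.3%, exact sign-flip permutation adjusted p = 0.00684), while serine was lower, at 10.5% against 11.4% (adjusted p = 0.00684). With both genes fixed to IGHD1-1 and IGHJ4, tyrosine was 26.8% in long CDR3s against 21.95% (adjusted p = 0.00684). Net charge per 100 residues was -1.63 in long CDR3s against -0.964 among IGHD1-1 clonotypes, which did not pass (exact sign-flip permutation adjusted p = 0.115). With IGHJ4 as well the direction turned, to -1.63 against -2.97 (9 of 10 mice less negative, adjusted p = 0.00911 by the same test).

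No residue measure of long CDR3s passed its test between treatments. Tyrosine made up 24.6%, 24.7%, 22.1%, 23.4% and 23.9% of residues in anti-CTLA-4 replicates 1 to 5, and 25.2%, 24.2%, 24.2%, 23.7% and 24.4% in isotype replicates 1 to 5. The net charge averaged -0.588 ± 0.216 in anti-CTLA-4 mice and -0.547 ± 0.0789 in isotype mice (SD, n = 5 each), with anti-CTLA-4 replicate 3 lowest at -0.958. Without the leading lineages the mean charges were -0.479 in anti-CTLA-4 mice and -0.563 in isotype mice. The smallest unadjusted p of the 7 measures was 0.262, for glycine (exact permutation adjusted p = 0.769).

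**Figure D4:**
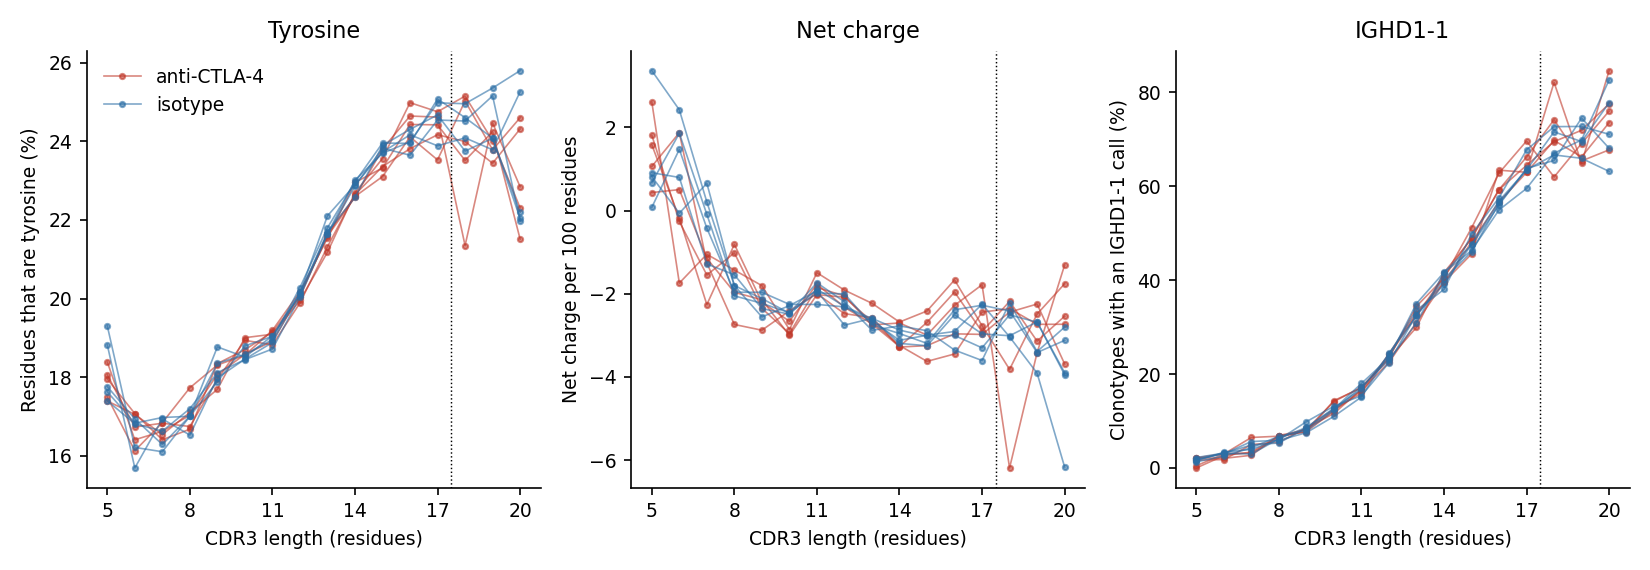
CDR3 length in residues (x axis; 20 stands for 20 or more) against the percentage of tyrosine (left), the net charge per 100 residues (middle) and the percentage of clonotypes with an IGHD1-1 call (right), 1 line per mouse, anti-CTLA-4 in red and isotype in blue. The dotted line marks the lower limit of long CDR3s. Tyrosine rises up to about 16 residues and then levels off near 24%, whereas IGHD1-1 use reaches 73.8% of the pooled clonotypes at 20 residues or more; the low tyrosine and charge points at 18 residues are anti-CTLA-4 replicate 3.

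V gene use was tested over the whole table of V genes. Of 92 V genes tested, 24 (26.1%) differed between long and 9 to 14 residue clonotypes at an adjusted p of 0.05 (edgeR quasi-likelihood test with the mouse as a block), 6 higher (6.52%) and 18 lower (19.6%) in long CDR3s. The median log2 fold change over the 89 genes with a long clonotype was -0.28, with a few genes far above it. V bases in the junction count towards the length by which the sequences were chosen, as D and J bases do. The V shares of a mouse add up to a fixed total, so the genes called lower are not all separate results. The joint call IGHV1-62-2 or IGHV1-71, near-identical genes that these sequences do not separate, rose most. It made up 4.61% ± 0.968 of long clonotypes against 0.691% ± 0.0752 at 9 to 14 residues (log2 fold change 2.68 ± 0.20 SE, edgeR adjusted p = 2.4e-23, 10 of 10 mice).

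The IGHV8 genes formed the largest group with a higher share. The 5 tested members together made up 15.04% ± 2.54 of long clonotypes against 5.34% ± 0.283, 4 of them were called higher and none lower, and their median log2 fold change was 1.52. IGHV8-8, the V gene used most in long CDR3s with 244 clonotypes, made up 6.92% ± 1.90 against 1.98% ± 0.154 (log2 fold change 1.74 ± 0.16 SE, edgeR adjusted p = 6.2e-18). IGHV8-12, with 233 clonotypes, made up 6.55% ± 1.86 against 2.86% ± 0.180 (1.13 ± 0.15 SE, adjusted p = 6.7e-10). IGHV8-2 rose by 2.54 ± 0.32 on the log2 scale on 35 clonotypes and IGHV8-5 by 1.19 ± 0.39 on 18. The call of IGHV8-5 was lost without isotype replicate 2 (edgeR adjusted p = 0.0641). IGHV15-2, a gene of another family, rose by 1.29 ± 0.31 on 31 clonotypes (edgeR adjusted p = 7.7e-04).

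The genes called lower came from several families. In IGHV14 and IGHV6, 3 of 5 and 2 of 2 tested genes were lower, and no gene of either family had a positive fold change. IGHV14-4 made up 0.466% ± 0.430 of long clonotypes against 1.99% ± 0.218 (log2 fold change -2.06 ± 0.33 SE, edgeR adjusted p = 1.1e-07). IGHV6-3 made up 0.233% ± 0.282 against 1.25% ± 0.0975 (-2.66 ± 0.44 SE, adjusted p = 3.7e-07), and IGHV9-2 0.134% ± 0.185 against 0.547% ± 0.0308 (-1.96 ± 0.55 SE, adjusted p = 0.00324). For IGHV1-2, IGHV11-2 and IGHV12-3 no long clonotype was found among 568, 346 and 211 clonotypes at 9 to 14 residues. Taking 3 clonotypes over all mice as the limit for a count of 0, their use was at least 3.13-fold, 1.91-fold and 1.16-fold lower in long CDR3s (edgeR adjusted p = 5.1e-04, 0.00454 and 0.0281). IGHV11-2 and IGHV12-3 are known from B-1 cells, whose receptors against phosphatidylcholine carry characteristic CDR3s.

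The V ends that these genes bring into the junction differed in length. For 4 genes called higher and 2 called lower, the commonest V-aligned start is shown for junctions without V mismatches, of any CDR3 length, cut at the 95th percentile of its own length, with the bases after the first 9 in capitals.
IGHV1-62-2 or IGHV1-71: tgtgcaagaCACGAAGATC
IGHV8-2: ggtgcttggAGAGAGCTC
IGHV8-8: tgtgctcgaATAGCT
IGHV8-12: tgtgctcgaAGAGCT
IGHV6-3: tgcacaggcC
IGHV14-4: tgtactacaT
The ends of the 4 genes called higher had 15 to 19 nucleotides, and those of the 2 genes called lower had 10. The junctions of all 598 IGHV8-2 clonotypes began with ggt in place of a cysteine codon. Its framework 3, which ends where the junction starts, had 111 nucleotides in 100% of its sequences, the length of 99.1% of IGHV8-8 and 99.6% of IGHV8-12 sequences, so the junctions of these genes started at the same place. Over the 89 genes, the log2 fold change ran with the mean number of V nucleotides in 9 to 14 residue junctions (Pearson 0.64, Spearman 0.50, a description over genes that share libraries). Because V nucleotides count towards the length by which the sequences were chosen, this relation is partly built in. Genes called higher brought in 12.3 V nucleotides on average, genes called lower 8.77 and genes not called 9.32. IGHV15-2 was called higher with 9.32.

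**Figure D5:**
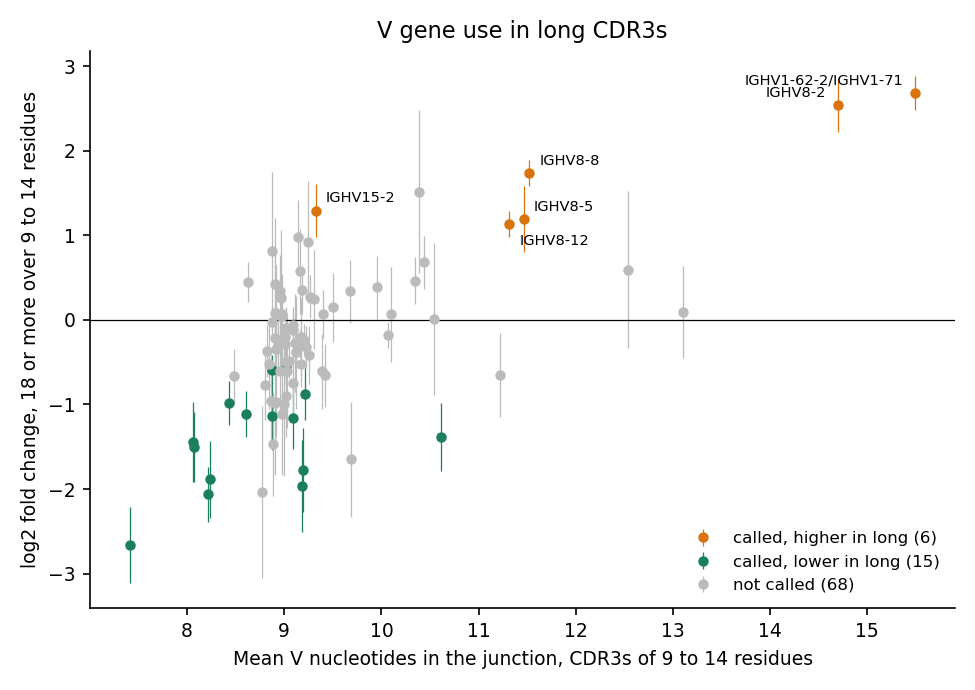
Mean number of V nucleotides in the junction of 9 to 14 residue CDR3s (x axis) against the log2 fold change of V gene use in long over 9 to 14 residue CDR3s (y axis), 1 point per V gene with at least 1 long clonotype (n = 89), bars being the standard error. The 6 genes called higher (orange, named) include the genes with the most V nucleotides, and the 15 plotted genes called lower (green) lie mostly at the low end; 3 further genes called lower had no long clonotype and are not drawn.

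Between treatments no V gene was called within long CDR3s: 0 of the 9 V genes with enough long clonotypes passed (0.0%), 0 had an unadjusted p under 0.05 by edgeR's quasi-likelihood test, and DESeq2 called 0 as well. The nearest was IGHV1-82, with 2.80% ± 0.821 of long clonotypes in anti-CTLA-4 mice and 4.05% ± 2.19 in isotype mice (log2 fold change -0.62 ± 0.33 SE, edgeR adjusted p = 0.608). IGHV1-26, with 199 long clonotypes, made up 5.28% ± 0.681 in anti-CTLA-4 mice and 5.68% ± 2.17 in isotype mice, and IGHV1-62-3 or IGHV1-72 3.235% ± 0.945 and 3.94% ± 2.30. In the other direction IGHV1-80 made up 3.355% ± 0.480 and 2.43% ± 0.913, IGHV3-6 4.41% ± 0.938 and 3.81% ± 0.988, and IGHV8-8 7.43% ± 2.46 and 6.41% ± 1.18 (edgeR adjusted p = 0.772 for each of these 5).

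The test of whether the treatment difference itself differed between long and 9 to 14 residue CDR3s also called 0 of 92 V genes (0.0%), with 10 at an unadjusted p under 0.05 (edgeR). The smallest p was that of IGHV1-5, which made up 1.65%, 1.92%, 24.0%, 2.71% and 2.58% of long clonotypes in anti-CTLA-4 replicates 1 to 5, and 2.59%, 2.35%, 0.267%, 2.14% and 1.91% in isotype replicates 1 to 5. The high value was that of anti-CTLA-4 replicate 3, and the difference was 1.33 on the log2 scale (edgeR adjusted p = 0.0871). It was 0.26 without that mouse, and it passed without anti-CTLA-4 replicate 1, 2 or 5 or without isotype replicate 2 or 4 (edgeR adjusted p = 0.0122 to 0.0448). IGHV1-18 had the smallest p in the other direction, with 0.976% ± 0.720 of long clonotypes in anti-CTLA-4 mice and 2.45% ± 0.933 in isotype mice (edgeR adjusted p = 0.219). IGHV9-1, IGHV6-3, IGHV2-9 and IGHV1-53 followed, with 11, 7, 7 and 86 long clonotypes and edgeR adjusted p values of 0.292, 0.391, 0.222 and 0.292.

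V mismatches, the differences from the germline V gene that include somatic mutations, were few in long CDR3s. IgM clonotypes with a long CDR3 had 0.0952, 0.161, 0.237, 0.1004 and 0.0529 mismatches per 100 V nucleotides in anti-CTLA-4 replicates 1 to 5, and 0.103, 0.105, 0.113, 0.0417 and 0.0456 in isotype replicates 1 to 5. Anti-CTLA-4 replicate 3 was the highest, and it was the exception to a lower value than at 9 to 14 residues, which was seen in the other 9 mice. Over all mice the means were 0.105 ± 0.0586 for long and 0.133 ± 0.0129 for 9 to 14 residue IgM clonotypes (SD, n = 10), which did not pass (exact sign-flip permutation p = 0.143, adjusted p = 0.715 over 6 measures). Without anti-CTLA-4 replicate 3 the means were 0.09085 and 0.134 (adjusted p = 0.0234), and without the leading lineages of all mice 0.0947 and 0.133 (adjusted p = 0.0234, the exact sign-flip permutation test each time). With that mouse, the exception in direction, left out, the p was fixed in advance. The sign-flip test then gives its smallest p for 9 mice, 0.00391 before adjustment.

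The same split appeared when IgM clonotypes were sorted by mismatch. Long CDR3s made up 0.924% ± 1.34 of IgM clonotypes with at least 1 mismatch per 100 nucleotides and 1.26% ± 0.0941 of those with none (SD, n = 10, 9 of 10 mice lower, exact sign-flip permutation adjusted p = 0.736). Anti-CTLA-4 replicate 3 had 4.62% in the mutated bin, and the other 9 mice 0% to 0.985%. Without it the difference was -0.751 percentage points (exact sign-flip permutation adjusted p = 0.00781). Leaving out the 1 mouse of the opposite direction fixed this p in advance. It is the smallest that 9 mice can give in that test, 0.00391 before adjustment. Between treatments, long IgM clonotypes had 0.129 ± 0.0714 mismatches per 100 nucleotides in anti-CTLA-4 mice and 0.0816 ± 0.0349 in isotype mice (SD, n = 5 each, exact permutation p = 0.286, adjusted p = 0.464). Switched long clonotypes were too few for a firm value: long IgG had 0.439 ± 0.545 (n = 5) and 0.538 ± 0.251 (n = 4) in anti-CTLA-4 and isotype mice (exact permutation adjusted p = 0.770).

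No class passed the test of how many long clonotypes were counted more than once between treatments, and IgM came nearest. A count of 2 or more was reached by 20.99% of long IgM clonotypes in anti-CTLA-4 replicate 1, by 30.8%, 31.05%, 32.7% and 41.8% in anti-CTLA-4 replicates 2 to 5, and by 37.2%, 56.5%, 37.45%, 43.8% and 49.3% in isotype replicates 1 to 5. Only anti-CTLA-4 replicate 5 overlapped the isotype mice (exact permutation test, two-sided, p = 0.0238, and 0.0952 when adjusted over 4 classes). For 9 to 14 residue IgM clonotypes the share was 29.6% ± 6.48 in anti-CTLA-4 mice and 43.7% ± 10.9 in isotype mice (SD, n = 5 each), and the difference between the length classes was 0.659 percentage points (exact permutation p = 0.817). Within mice, the share of long IgM clonotypes did not pass its test against that of 9 to 14 residue IgM clonotypes (38.2% ± 10.2 against 36.7% ± 11.2, n = 10, exact sign-flip permutation adjusted p = 0.598). In IgA 97.5% ± 7.07 of long clonotypes had a count of 2 or more against 67.6% ± 8.32 (8 of 8 mice that had any, adjusted p = 0.0312 by the same exact test). This call rests on 23 long clonotypes. It was lost without any 1 of these 8 mice (adjusted p = 0.0625 by the same exact test). With every mouse in 1 direction, the number of mice left fixed that value in advance. The loss therefore does not show that the call depends on any 1 mouse.

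By deposited counts, the long share rested on few clonotypes. Long CDR3s took 0.379%, 0.389%, 1.96%, 0.3575% and 0.266% of classed heavy-chain counts in anti-CTLA-4 replicates 1 to 5, and 0.281%, 0.999%, 0.247%, 0.311% and 0.681% in isotype replicates 1 to 5. Anti-CTLA-4 replicate 3 was the highest, followed by isotype replicates 2 and 5. The group means were 0.670% ± 0.723 and 0.504% ± 0.327 in anti-CTLA-4 and isotype mice (SD, n = 5 each), and no class passed the exact permutation test (adjusted p = 0.976 for each of 5 shares). In IgM the share was 7.52% in anti-CTLA-4 replicate 3, against 0.736% to 1.05% in the other anti-CTLA-4 mice and 0.998% to 1.18% in isotype mice.

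A single lineage held most long counts of anti-CTLA-4 replicate 3. It used IGHV1-5, IGHD1-1 and IGHJ1, and its best counted junction is the first sequence shown above. With relatives of at least 90% junction identity it comprised 70 clonotypes, 22.4% of that mouse's long clonotypes, and a count of 5530, 92.7% of its long counts. Members were found in IgM (42 clonotypes, count 2690), IgG2c (8, count 1672), IgG2b (3, count 750), IgG3 (6, count 359) and IgG1 (1, count 36), with a few in IgD and IgA. Of the members 18.6% had no V mismatch, and they held 47 distinct CDR3s. Without the lineage, long CDR3s made up 1.21% of this mouse's IgM clonotypes and 0.712% of its IgM counts, and 0.794% of its IgG clonotypes.

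The same junction was the best counted long junction of anti-CTLA-4 replicate 4, at a count of 45 in IgM and 1 in IgG3. Whether those copies came from that mouse or from carry-over between libraries was not tested.

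In 5 of the 10 mice the best counted long clonotype was IgA. These were IGHV1-64 with IGHJ4 in anti-CTLA-4 replicate 1 (count 831, 60.6% of its long counts), IGHV6-3 with IGHJ4 and 21 residues in anti-CTLA-4 replicate 5 (count 57), IGHV1-26 with IGHJ1 in isotype replicate 2 (count 576), IGHV1-9 with IGHJ1 in isotype replicate 4 (count 97) and IGHV1-55 with IGHJ2 in isotype replicate 5 (count 476). In anti-CTLA-4 replicate 2 the leader was an IgE clonotype, the class tied to mast cells and helminth responses, of IGHV1-50, IGHD1-1 and IGHJ4. It had a count of 307, and the same rearrangement had a count of 218 in IgG1 and was present in IgM and IgG2b too. Isotype replicate 1 was led by an IgM clonotype of IGHV8-8 (count 114) and isotype replicate 3 by an IgG2b clonotype of IGHV1-69, IGHD1-1 and IGHJ4 (count 145).

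The leading long IgG clonotypes used IGHD1-1 in 9 of the 9 mice that had any, near its share of 91.5% of all 82 long IgG clonotypes. Their counts were 1, 218, 1642, 1 and 34 in anti-CTLA-4 replicates 1 to 5, and 31, 66, 145 and 43 in isotype replicates 1 to 4. The largest, in anti-CTLA-4 replicate 3, was the IgG2c form of the IGHV1-5 lineage. The leader of anti-CTLA-4 replicate 4, at a count of 1, had the same junction. The long IGHV1-69 junction of isotype replicate 3 was also the leading long IgG of isotype replicate 4.

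Long CDR3s were rarely shared between mice. Of 3398 distinct combinations of V gene, J gene and CDR3 amino acids, 7 (0.206%) occurred in 2 mice and none in 3, against 2116 of 202778 (1.04%) in 2 or more mice and up to 10 mice at 9 to 14 residues. A larger pool offers more chances of a match, and pools of equal size were not compared. These percentages therefore do not show whether length itself lowers sharing. The 5 with the highest counts among those shared all used IGHD1-1, which was called in a mean of 70.4% of long clonotypes. Each of the 5 occurred in 2 mice, and both mice held an identical junction, N nucleotides included. Whether these copies came from the mice themselves or from carry-over between libraries was not tested. How often shared 9 to 14 residue CDR3s fell within 1 treatment was not computed. The treatments below are therefore listed without a comparison. The IGHV1-5 CDR3 had counts of 5390 and 46 in anti-CTLA-4 replicates 3 and 4, and the IGHV3-6 CDR3 with IGHJ3 shown above had 15 and 3 in 2 anti-CTLA-4 mice. The junctions of the other 3, with the D-aligned bases in capitals, show the same D stretch between different N nucleotides.
IGHV1-50, IGHJ4, counts 564 and 6 in 2 anti-CTLA-4 mice: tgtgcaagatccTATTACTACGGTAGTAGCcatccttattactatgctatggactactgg
IGHV1-69, IGHJ4, counts 174 and 43 in 2 isotype mice: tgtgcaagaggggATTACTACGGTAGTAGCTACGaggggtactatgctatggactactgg
IGHV1-18, IGHJ4, 20 residues, counts 27 and 21 in 2 isotype mice: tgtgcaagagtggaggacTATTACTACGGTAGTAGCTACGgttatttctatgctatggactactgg
Of long clonotypes 9 (0.258%) had more counts in another mouse, against 0.497% of clonotypes at 9 to 14 residues, with the same limit of unequal pools.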

How the data were processed

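Libraries were prepared from total RNA with a mouse B cell receptor kit that carries molecular identifiers, per the labels' protocols. For each mouse the authors deposited an AIRR table that gives every assembled sequence a whole-number count, and these deposited counts were not normalized. The aligner, the germline set and the use of the identifiers are not stated in the labels, so a count may be a read or a molecule. Sequences marked productive with a CDR3 and a J call were used. Joint V calls (6.28% to 7.79% of sequences) were kept joint, and class shares omit the 0.121% to 0.326% with no constant gene. All 95 V and J names matched the GRCm38.p6 gene table. No genome was read, so no coordinates are given.

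The members, gene lists and tests were chosen with earlier results of these data known. V mismatches were counted over at least 200 aligned V nucleotides. A lineage joined clonotypes of 1 mouse with equal class, V gene (the first where several were listed), J gene and junction length, at 90% junction identity to another member. The leading long lineage of a mouse was defined otherwise. It held the best counted long clonotype and those of any class with the same genes, junction length and at least 90% junction identity to it. D, N and J parts came from the deposited alignment positions. Because N lengths add up to the CDR3 length, they were described and not tested as had been planned.

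One value per mouse was compared between treatments by two-sided exact permutation over 252 reassignments (smallest p 0.00794) and between length classes by exact sign flips over 1024 (smallest p 0.00195), with Benjamini-Hochberg adjustment within each family of measures and a threshold of 0.05. The labels do not say whether mice shared a cage or batch. V gene use was tested with edgeR 4.0.16 (glmQLFit, glmQLFTest, TMM, filterByExpr) on clonotype numbers in R 4.3.3, and DESeq2 1.42.0 was an alternative. Scripts ran in Python 3.11.15 and were tested on simulated data.

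Named V genes were the 6 past the threshold with the largest fold change in each direction, otherwise the 3 with the smallest p in each direction, and the 5 most used. Named clonotypes were the best counted long and long IgG clonotype of each mouse and the 5 long CDR3s found in most mice, ties broken by count. Alternatives were a lower limit of 17 or 20 residues, a count of at least 2, lineages, CDR3 amino acids or counts in place of clonotypes, all CDR3s of 17 or fewer residues for comparison, IgM alone, CDR3s without their first 3 and last 4 residues, clonotypes with more counts in another mouse left out, the first listed V gene, no TMM, no filter, each mouse left out and the replicate block.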

Additional observations from a re-analysis of the deposited data

Results flagged for a closer look

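In 50 sets of 4 or 5 mice of 1 group, 10 held a mouse whose gap to its nearest neighbour was large for the range of the group (Dixon's ratio above its 95% critical value), where chance gives about 1 in 20 sets. Anti-CTLA-4 replicate 3 was that mouse in 6 sets. Its IGHJ1 share of long clonotypes was 45.5%, and 27.2% to 32.1% in the other anti-CTLA-4 mice. Its long share was 1.49% of all classed clonotypes (others 1.10% to 1.21%) and 2.82% of IgG clonotypes (others 0.132% to 0.439%). By counts its long share was 1.96% of all (others 0.266% to 0.389%), 7.52% of IgM (others 0.736% to 1.05%) and 1.26% of IgG (others 0.000347% to 0.225%). The IGHV1-5 lineage of that mouse held 92.7% of its long counts.

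In IgA, anti-CTLA-4 replicate 1 had long CDR3s in 5.71% of clonotypes and 22.0% of counts, against at most 1.27% and 0.0846% in the other anti-CTLA-4 mice, on 2 clonotypes of which 1 had a count of 831. Isotype replicate 2 had 2.21% of IgA counts in long CDR3s, and the other isotype mice at most 0.498%. Isotype replicate 3 had 0.163 V mismatches per 100 nucleotides in long IgD clonotypes, and the other isotype mice 0.0394 to 0.0700.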

How the results depend on the processing

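The IGHJ2, IGHJ3, IGHD1-1, tyrosine and lysine with arginine differences between long and 9 to 14 residue CDR3s kept their direction under every alternative run, while most differences between treatments were small enough to turn. Over all results, 614 alternative values other than those that left out a mouse kept direction and side of the threshold, and 49 turned direction. For each value below that changed, the cause was not tested.

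With a limit of 17 residues, the treatment difference in the long share of IgD was 0.0269 percentage points and in the share of all counts -1.40. The IgG minus IgM share was 0.996 (adjusted p = 0.371), and the IgD minus IgM share, -0.185, was the 1 class to pass (exact sign-flip permutation adjusted p = 0.0469). The treatment difference was 0.0255 for IGHJ2, -0.313 for IGHJ3 and 0.0134 for net charge. IgM mismatches differed by -0.0307 (adjusted p = 0.0234, exact sign-flip permutation), 2 mismatch measures passed, 2 V genes passed the test of the treatment effect between lengths, and IGHV1-53 was 0.23 there. With a limit of 20 residues, the treatment difference in the IgM share was 0.000119, in the share of counts -0.0201 and of IgM counts -0.0345. The IgG and IgA minus IgM shares were 0.0359 and -0.0318, and IGHJ1 was 6.55 percentage points higher in long CDR3s (exact sign-flip permutation adjusted p = 0.0762). The treatment difference was 0.319 for net charge and -0.0624 for IgM mismatches. 1 mismatch measure passed, the count-of-2 difference in IgM was -3.29 and the mismatch bins differed by 0.0208. There 46 V genes were called in place of 24, with IGHV15-2 at -0.62, IGHV8-5 at -7.52, and the treatment effect between lengths at -0.47 for IGHV1-5 and 0.30 for IGHV1-53.

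With a count of at least 2, 14 V genes were called, the treatment difference in the IgM share was 0.0254, in IGHJ3 -0.465 and in net charge 0.00479, cysteine was 0.0253 percentage points higher in long CDR3s, and the mismatch bins differed by 0.0224. With CDR3 amino acids defining clonotypes, the treatment difference in IGHJ4 was -3.93 (exact permutation adjusted p = 0.0317, the 1 J gene to pass) and in IGHJ2 0.0392. With lineages, it was 0.249 in the IgA share, 0.187 in IGHJ2, 0.0559 in net charge and 0.0444 in IGHV1-26. The count-of-2 difference in IgM was -0.574, 0 classes passed there, and 1 of the 2 bin comparisons passed. With counts in place of clonotypes, IGHJ4 was 21.8 percentage points higher in long CDR3s (exact sign-flip permutation adjusted p = 0.104) and acidic residues 0.8293 higher. The treatment difference was then -0.713 for IGHJ1, -0.573 for IGHJ3, 10.3 for IGHJ4 and 0.985 for tyrosine, and IgM mismatches differed by -0.0399 (exact sign-flip permutation adjusted p = 0.0117), with 1 mismatch measure passing. Without the first 3 and last 4 residues cysteine was 0.0315 higher in long CDR3s and the treatment difference in net charge 0.0106, and with no filter 1 V gene, IGHV1-5, was called between treatments in long CDR3s.

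The leading lineages, left out after the data were seen, held 70 clonotypes in anti-CTLA-4 replicate 3 and at most 9 in any other mouse. Without them, the treatment difference was -0.112 in the share of all clonotypes (1 class measure passed), 0.594 in IgA, -0.0972 in the share of counts, -0.200 in IgM counts, 0.316 in IGHJ2 and 0.0841 in net charge. The IgA minus IgM share was -0.701, IgM mismatches differed by -0.0387 (1 measure passed), 7 of 7 residue measures passed, cysteine with them, 0 classes passed the count-of-2 comparison and 2 bin comparisons passed. The 7 residue measures include net charge, which is per CDR3, and so grows with length, unless given per 100 residues. Among IGHD1-1 clonotypes, serine differed by -0.897 and acidic residues by 0.239 percentage points. Among those with IGHJ4 as well, glycine differed by 0.303 and net charge by 0.0739, and 2 of 7 residue measures passed. Per 100 residues, the net charge differed by -0.662 among IGHD1-1 clonotypes and by 1.34 with IGHJ4 as well, where 3 of 7 measures passed.

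Leaving out each mouse in turn, the treatment difference ran from -0.0877 to 0.0220 in the IgD share, -1.10 to 0.00448 in IgG, -1.71 to 0.102 in IgA, -0.156 to 0.290 in the share of counts, -0.180 to 1.52 in IgM counts, -0.722 to 1.06 in IGHJ2, -5.21 to -2.89 in IGHJ4 (0 to 1 J genes passed) and -0.0762 to 0.0513 in net charge. IgM mismatches differed by -0.0427 to -0.0207 (0 to 1 measures passed), the count-of-2 comparison passed in 0 to 1 classes and the bins in 0 to 1, with the count bins at -0.436 to 0.00665. IGHV1-26 ran from -0.36 to 0.17, IGHV1-62-3 or IGHV1-72 from -0.43 to 0.14, and 0 to 1 V genes passed the test of the treatment effect between lengths.

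The labels do not say whether replicate numbers pair the mice. Deviations of same-numbered mice in the V gene shares of long clonotypes correlated between -0.144 and 0.212 over 92 genes. At 9 to 14 residues they correlated between -0.0598 and 0.254. Replicate 4 matched its own number best in long clonotypes, and replicates 3 and 5 did at 9 to 14 residues. Pairing was not tested, and few long clonotypes per gene make their values noisy, so pairing remains undecided. With the replicate block, the treatment difference in the long share stayed at -0.0513 (exact permutation p = 0.562). Since 0.0625 is the smallest p the blocked permutation can give, it says nothing about the stability of these tests. The blocked edgeR test called 0 V genes between treatments in long CDR3s, with 1 at an unadjusted p under 0.05. DESeq2 called 24 V genes between length classes, and edgeR without TMM or with the first-listed V gene called 25. A limit of 20 residues or a count of at least 2 left too few clonotypes for the treatment test of V genes in long CDR3s. Depth limits the switched classes, whose long shares rest on 0 to 29 clonotypes per mouse.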
